A study of Homo sapiens with 12 samples.

Results

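The TAM receptors AXL, TYRO3 and MERTK and their ligands GAS6 and PROS1 were followed through a knockdown of YAP1 and WWTR1 (the gene of TAZ) in A549 cells, a human lung adenocarcinoma line of alveolar epithelial origin. These 5 genes were taken by symbol from the 60617 Ensembl genes of the tables. The 3 groups held 4 libraries each, which the series calls biological replicates. All cells carried an siRNA: siCo cells a non-targeting control, and siYAP/TAZ#1 and siYAP/TAZ#2 cells one or the other combination directed against both YAP1 and WWTR1. RNA was taken 24 hours after transfection from this single line in culture, without immune or stromal partners. The labels do not say how the cultures of a group were kept apart, so the p-values measure the spread between these libraries.

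TAM receptors are receptor tyrosine kinases of the cell surface. They do not bind the membrane of a dying cell directly: GAS6 and protein S (the product of PROS1), which carry vitamin K dependent Gla domains, hold exposed phosphatidylserine at one end and a receptor at the other. In macrophages MERTK is known for the uptake of dead cells and all 3 receptors for damping innate signals, whereas AXL is known in lung carcinoma for survival, migration and drug tolerance. AXL is also a reported target of YAP and TAZ, coactivators that reach DNA mainly through TEAD factors.

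AXL showed the widest change of the 5 genes, so the sequence before its starts is shown. RefSeq (GRCh38.p14) gives AXL a start at chr19:41219223 and an alternative start at chr19:41226755, both on the plus strand. Below is the sequence on the plus strand, 5′ to 3′, that lies within the 250 bases before each start. At the first start the 20 bases that GENCODE v29 counts as exon are left out, which gives chr19:41218973-41219202. The window of the alternative start, chr19:41226505-41226754, lies inside the gene and in no annotated exon, that is, in an intron. Capitals mark matches on either strand to CATTCC (the core of the TEAD motif), TGAGTCA (the AP-1 motif) or GGGCGG (the GC box).
AXL, first start: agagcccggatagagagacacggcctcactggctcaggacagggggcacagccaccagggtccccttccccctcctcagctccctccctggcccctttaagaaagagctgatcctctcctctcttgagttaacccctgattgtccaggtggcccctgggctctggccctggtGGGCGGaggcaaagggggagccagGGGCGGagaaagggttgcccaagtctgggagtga
AXL, alternative start: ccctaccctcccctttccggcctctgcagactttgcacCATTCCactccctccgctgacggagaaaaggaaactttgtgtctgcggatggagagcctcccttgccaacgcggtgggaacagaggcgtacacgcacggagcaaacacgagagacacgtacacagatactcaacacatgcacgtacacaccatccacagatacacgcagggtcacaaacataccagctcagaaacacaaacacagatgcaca
The window of the first start held 2 GC boxes and neither of the other motifs. The window of the alternative start held 1 CATTCC, which begins 212 bases before that start, and no GC box. Among 35116 RefSeq windows of 250 bases, CATTCC occurred in 11.9%, TGAGTCA in 4.20% and GGGCGG in 42.6%. All 5 genes matched RefSeq, with 7 windows in all. The windows of TYRO3, MERTK, GAS6 and PROS1 held no CATTCC and no TGAGTCA. Not all of these windows lie before the annotated gene. In GENCODE v29, 250 bases of each TYRO3 window, 128 of MERTK, 250 of PROS1 and 0 of GAS6 lie inside the gene. Exons hold 178 bases of the first TYRO3 window, 0 of its second, 128 of MERTK and 193 of PROS1. GC boxes numbered 3 in the first window of TYRO3, 0 in its second, 4 in MERTK, 3 in GAS6 and 2 in PROS1. These matches describe letters only, and which start the cells used is not resolved by gene-level values.

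The labels held for the knockdown: under the first and second combination YAP1 was left at 15.5% and 14.3% of its siCo mean, and WWTR1 at 13.7% and 13.5%. The 12 libraries held 29.6 to 38.3 estimated counts in units of 1e6, and levels are given as CPM, counts per 1e6; in these, 10 counts stood for 0.261 to 0.338 CPM. Within a group, log2 CPM correlated between libraries with Pearson r of 0.979 to 0.991. Replicate 1 of siYAP/TAZ#2 stood apart, with r of 0.979 to 0.984 to its own group against 0.989 to 0.990 among the other 3, and results that rest on it are given without it too. Epithelial markers were present: all 5 passed the filter on low counts, with a summed level of 3267 to 3628 CPM in siCo, 3444 to 3813 under siYAP/TAZ#1 and 2983 to 4321 under siYAP/TAZ#2. Most of this sum was KRT8, at 2383, 2503 and 2511 CPM in the 3 groups, which passed no test with TMM scaling. With library size alone KRT8 was called higher with both combinations, by 0.246 and 0.255 (edgeR adjusted p 0.0073 and 0.0050). CDH1 (E-cadherin) rose by 1.07 and 0.57 (edgeR adjusted p 1.42e-08 and 1.28e-05), KRT19 by 0.56 and 0.83 (6.56e-04 and 1.32e-05) and EPCAM, from 2.26 CPM, by 0.52 and 0.47 (0.033 and 0.049). KRT18 was at -0.09 with siYAP/TAZ#1 and at -0.25 with siYAP/TAZ#2 (edgeR adjusted p 0.030), a call lost with library size alone, which gave 0.09 and -0.07. Of 6 alveolar type II markers, 2 passed the filter, ABCA3 and LAMP3. SFTPA1 was at 0 in all 12 libraries, and SFTPB, SFTPC and NKX2-1 failed the filter. LAMP3 was at 0.71, 0.63 and 0.73 CPM in the 3 groups and passed no test. ABCA3 made up nearly all of the sum over these markers. That sum was 123 to 129 CPM in siCo, 147 to 166 under siYAP/TAZ#1 and 152 to 183 under siYAP/TAZ#2. ABCA3 rose by 0.34 and 0.37 (edgeR adjusted p 5.53e-04 and 2.59e-04).

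All 5 TAM genes passed the filter on low counts. Against siCo, 1 of 5 fell and 2 of 5 rose with siYAP/TAZ#1, where 18.5% of the 21581 genes tested fell and 16.4% rose. With siYAP/TAZ#2, 2 of 5 fell and 1 of 5 rose, where 19.2% of genes fell and 19.0% rose. Between the combinations, 1 of 5 was lower and 1 of 5 higher with siYAP/TAZ#2, where 6.92% of genes were lower and 8.20% higher. A call is an edgeR quasi-likelihood test with an adjusted p below 0.05 over all genes tested. Both comparisons with siCo share the same 4 control libraries. The scaling matters for genes near the threshold: with library size alone in place of TMM factors, the median log2 change of all genes went from 0.02 to 0.20 for siYAP/TAZ#1, and for siYAP/TAZ#2 it went from 0.02 to 0.21. The split of calls then moved from 3999 lower and 3531 higher to 1905 and 5876 with siYAP/TAZ#1, and from 4144 and 4100 to 2037 and 6538 with siYAP/TAZ#2.

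AXL (ENSG00000167601, chr19:41219203-41261766, plus strand, GENCODE v29 on GRCh38) was the most abundant of the 5 genes in every library. The siCo libraries 1 to 4 held 1145, 1187, 1219 and 1148 CPM of AXL. With siYAP/TAZ#1 the values were 560, 619, 538 and 558 CPM, and with siYAP/TAZ#2 they were 615, 477, 526 and 526 CPM. Every treated library lay far below every siCo library, and the treated groups overlapped each other. AXL fell by 1.05 ± 0.07 (log2 ± SE) with siYAP/TAZ#1, to 48.4% of siCo (edgeR adjusted p 1.62e-08). It fell by 1.13 ± 0.07 with siYAP/TAZ#2, to 45.6% of siCo (edgeR adjusted p 5.70e-09). Between the combinations the difference was -0.09 ± 0.07 (edgeR adjusted p 0.53). Without replicate 1 of siYAP/TAZ#2, which held the highest AXL of its group, that difference was -0.15 and passed the test (edgeR adjusted p 0.042). With library size alone AXL fell by 0.87 and 0.95. Since these are bulk libraries, fewer cells of a kind and less RNA per cell cannot be told apart for this or any other gene here.

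**Figure D1:**
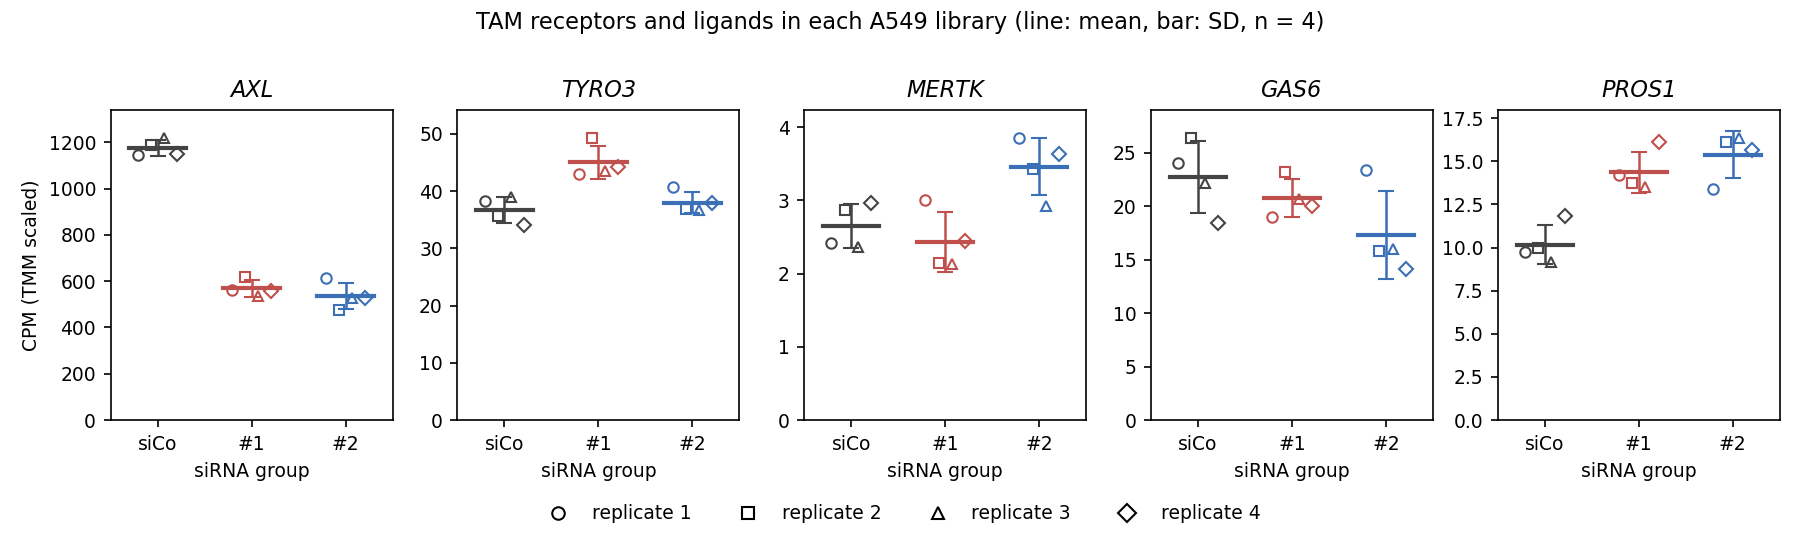
Level of each TAM gene in CPM (y axes from 0, a scale of its own per gene) in siCo, siYAP/TAZ#1 (#1) and siYAP/TAZ#2 (#2); marker shapes are libraries 1 to 4, horizontal lines means and bars SD (n = 4). AXL in treated libraries, 477 to 619 CPM, sits below all siCo libraries at 1145 or more, whereas PROS1 in treated libraries, 13.4 to 16.4 CPM, sits above all siCo libraries at 11.8 or less.

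TYRO3 (ENSG00000092445, chr15:41557675-41583586, plus strand), the receptor best known in neurons and dendritic cells and one that binds both ligands, rose with siYAP/TAZ#1. Its siCo libraries held 38.2, 35.7, 39.0 and 34 CPM. The siYAP/TAZ#1 libraries held 43.1, 49.3, 43.6 and 44.3 CPM, all above siCo. The siYAP/TAZ#2 libraries held 40.6, 36.8, 36.6 and 37.9 CPM, which overlapped siCo and lay below all of siYAP/TAZ#1. The change was 0.30 ± 0.07 with siYAP/TAZ#1 (edgeR adjusted p 0.0021, 1.23-fold) and 0.05 ± 0.07 with siYAP/TAZ#2 (edgeR adjusted p 0.61). The difference between the combinations was -0.25 ± 0.07 and passed the test (edgeR adjusted p 0.017). That call was lost without siYAP/TAZ#1 replicate 2 (-0.20, edgeR adjusted p 0.071), siYAP/TAZ#2 replicate 2 (-0.23, 0.050) or siYAP/TAZ#2 replicate 3 (-0.23, 0.057). With library size alone, the change with siYAP/TAZ#2 was 0.24 and passed the test too (edgeR adjusted p 0.0057). A processed pseudogene, TYRO3P, was counted at 4.08 ± 0.59, 4.69 ± 0.45 and 4.19 ± 0.50 CPM (SD, n = 4) in siCo, siYAP/TAZ#1 and siYAP/TAZ#2. It passed no test (0.21 ± 0.13 and 0.04 ± 0.13 against siCo), and reads of TYRO3 that the counting gave to this copy would be missing from TYRO3.

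MERTK (ENSG00000153208, chr2:111898479-112029561, plus strand) was the lowest of the 5 genes. Its libraries held 63 to 104 estimated counts in siCo, 76 to 104 under siYAP/TAZ#1 and 109 to 122 under siYAP/TAZ#2, so counting error weighs more here than for the other members. In CPM the siCo libraries held 2.42, 2.86, 2.36 and 2.96. The siYAP/TAZ#1 libraries held 3.0, 2.14, 2.12 and 2.45 CPM, and the siYAP/TAZ#2 libraries 3.85, 3.43, 2.93 and 3.63 CPM. All groups overlapped their neighbours, though only 1 siYAP/TAZ#2 library lay within the range of the others. Neither change against siCo passed the test: -0.13 ± 0.15 with siYAP/TAZ#1 (edgeR adjusted p 0.55) and 0.38 ± 0.15 with siYAP/TAZ#2 (edgeR adjusted p 0.054). MERTK was higher with siYAP/TAZ#2 than with siYAP/TAZ#1 by 0.51 ± 0.15 (edgeR adjusted p 0.026). This call was lost without siYAP/TAZ#1 replicate 2, 3 or 4 (edgeR adjusted p 0.080, 0.090 and 0.053) or siYAP/TAZ#2 replicate 4 (0.069). The change against siCo with siYAP/TAZ#2 passed the test with library size alone (0.56, edgeR adjusted p 0.0081), and also without siCo replicate 4, siYAP/TAZ#1 replicate 1 or siYAP/TAZ#2 replicate 3 (0.045, 0.041 and 0.033). With library size alone the sign with siYAP/TAZ#1 turned to 0.04.

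Because MERTK is prominent in macrophages, macrophage markers are given beside it. Of 6 such genes 4 passed the filter, and their sum over all 6 ran from 26.3 to 29.9 CPM in siCo, 27.1 to 30.1 under siYAP/TAZ#1 and 27.8 to 36.8 under siYAP/TAZ#2. Most of this was CD68, a lysosomal protein of many cell types, at 25.1, 21.5 and 24.3 CPM in the 3 groups. CD14 rose from 2.23 to 5.76 and 7.07 CPM. The remaining genes of the 6 were low. CD163 was at 0.510, 0.601 and 0.431 CPM and PTPRC at 0.292, 0.354 and 0.453 CPM. CSF1R was at 0.282, 0.268 and 0.169 CPM and MRC1 at 0.081 CPM or less. Endothelial markers summed to at most 1.12 CPM in any library. Of the fibroblast markers, COL1A1 was at 110, 153 and 117 CPM, while DCN and PDGFRB stayed below 0.44 CPM as group means.

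**Figure D2:**
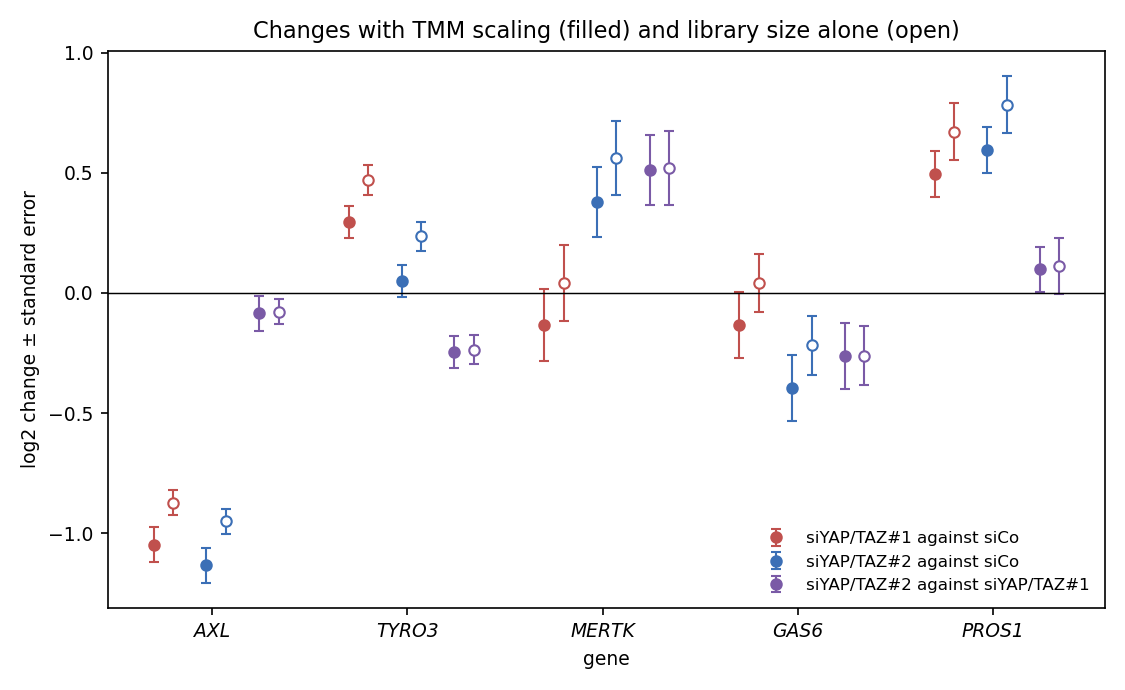
Log2 change (y axis) of each TAM gene in the 3 comparisons, as points with bars for the standard error; filled points use TMM scaling and open points library size alone. AXL lies near -1 in both comparisons with siCo and PROS1 lies above 0 in both, while MERTK and GAS6 cross 0 with the scaling in siYAP/TAZ#1, from -0.13 to 0.04 each.

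GAS6 (ENSG00000183087, chr13:113820549-113864067, minus strand), the ligand that activates all 3 receptors, passed the test with siYAP/TAZ#2 only, and that call was fragile. The siCo libraries held 24.0, 26.4, 22.2 and 18.5 CPM. The siYAP/TAZ#1 libraries held 19.0, 23.2, 20.7 and 20.04 CPM, inside the range of siCo. The siYAP/TAZ#2 libraries held 23.4, 15.8, 16 and 14.1 CPM: replicate 1 lay with siCo and the other 3 below it. The change was -0.13 ± 0.14 with siYAP/TAZ#1 (edgeR adjusted p 0.51) and -0.39 ± 0.14 with siYAP/TAZ#2, to 76.1% of siCo (edgeR adjusted p 0.034). Without replicate 1 of siYAP/TAZ#2 the fall was 0.57 (edgeR adjusted p 1.31e-04), and the difference from siYAP/TAZ#1 went from -0.26 ± 0.14 (edgeR adjusted p 0.26) to -0.43 (edgeR adjusted p 0.0033). The call with siYAP/TAZ#2 was lost without siCo replicate 1, 2 or 3 (edgeR adjusted p 0.085, 0.12 and 0.057) or siYAP/TAZ#2 replicate 2, 3 or 4 (0.087, 0.088 and 0.11). It was also lost with library size alone (-0.22, edgeR adjusted p 0.17), where the sign with siYAP/TAZ#1 turned to 0.04.

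GAS6-AS1, a gene annotated on the opposite strand, rose with both combinations. Its span overlaps that of GAS6 over 25196 bases, introns included. It stood at 26.2 ± 2.67 CPM in siCo, 37.3 ± 1.96 with siYAP/TAZ#1 and 35.9 ± 4.30 with siYAP/TAZ#2 (SD, n = 4). The changes were 0.51 ± 0.09 (edgeR adjusted p 2.99e-04) and 0.45 ± 0.09 (edgeR adjusted p 7.36e-04). Whether the libraries were stranded is not given in the sources used here. Reads of GAS6 and GAS6-AS1 from any shared exon bases therefore cannot be told apart, and both values are uncertain to that extent. The overlap of exons alone was not measured.

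PROS1 (ENSG00000184500, chr3:93873033-93980003, minus strand), which encodes protein S, a ligand of TYRO3 and MERTK and a cofactor in anticoagulation, rose with both combinations. The siCo libraries held 9.73, 9.98, 9.19 and 11.8 CPM. The siYAP/TAZ#1 libraries held 14.2, 13.7, 13.5 and 16.1 CPM, and the siYAP/TAZ#2 libraries 13.4, 16.1, 16.4 and 15.7 CPM. No treated library overlapped siCo, and the treated groups overlapped each other. PROS1 rose by 0.50 ± 0.10 with siYAP/TAZ#1 (1.41-fold, edgeR adjusted p 6.53e-04) and by 0.59 ± 0.10 with siYAP/TAZ#2 (1.51-fold, edgeR adjusted p 1.13e-04). The combinations differed by 0.10 ± 0.09 (edgeR adjusted p 0.59). Its related pseudogene PROS2P was at 0 in all 12 libraries.

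Levels of different genes were compared per transcript length, on the deposited TPM scale. Mean TPM followed the order AXL, TYRO3, GAS6, PROS1, MERTK in each group. In siCo these means were 243 ± 34.2 for AXL, 7.99 ± 1.35 for TYRO3, 6.97 ± 1.02 for GAS6, 2.09 ± 0.55 for PROS1 and 0.479 ± 0.070 for MERTK (SD, n = 4). Only TYRO3 and GAS6 were neighbours whose ranges over the libraries of a group overlapped, in all 3 groups. All other neighbours were apart in every group. Within a library, TYRO3 stood above GAS6 in 3 of 4 libraries of siCo and in 4 of 4 of each treated group. Scaled instead by counts per kilobase of the whole gene model, GAS6 at 120 stood above TYRO3 at 106 in siCo, so the order of these neighbours depends on the length used. Deposited TPM sums over all RNA, and the MIR3648-1 and MIR3648-2 copies alone took 9.60% to 39.4% of it. Ranges of TPM over libraries carry this difference too, so the shares and ratios below are taken within a library.

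Shares and ratios within each library describe the balance of receptors and of ligands. AXL made up 96.6% ± 0.12 of receptor TPM in siCo, 92.3% ± 1.14 with siYAP/TAZ#1 and 92.2% ± 1.2 with siYAP/TAZ#2 (SD, n = 4). TYRO3 made up 3.18% ± 0.12, 7.39% ± 1.14 and 7.23% ± 1.13. The ratio of AXL to TYRO3 ran from 28.8 to 31.4 in siCo, 10.6 to 15.3 under siYAP/TAZ#1 and 11.3 to 16.9 under siYAP/TAZ#2, without overlap between siCo and treated libraries. Summed receptors to summed ligands ran from 25.6 to 31.4 in siCo, 11.7 to 13.5 and 11.6 to 15, again without overlap with siCo. The ratio of GAS6 to PROS1 was 3.47 ± 0.80 in siCo, 2.05 ± 0.28 with siYAP/TAZ#1 and 1.67 ± 0.77 with siYAP/TAZ#2, and here the ranges overlapped: siCo replicate 4 was at 2.32 and siYAP/TAZ#2 replicate 1 at 2.81. These ratios are descriptions without a test. AXL enters all the receptor shares and ratios, so these are not separate from its fall. The share of TYRO3 was higher with siYAP/TAZ#2 although TYRO3 itself passed no test there against siCo with TMM scaling. AXL remained the bulk of receptor transcripts in every library.

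**Figure D3:**
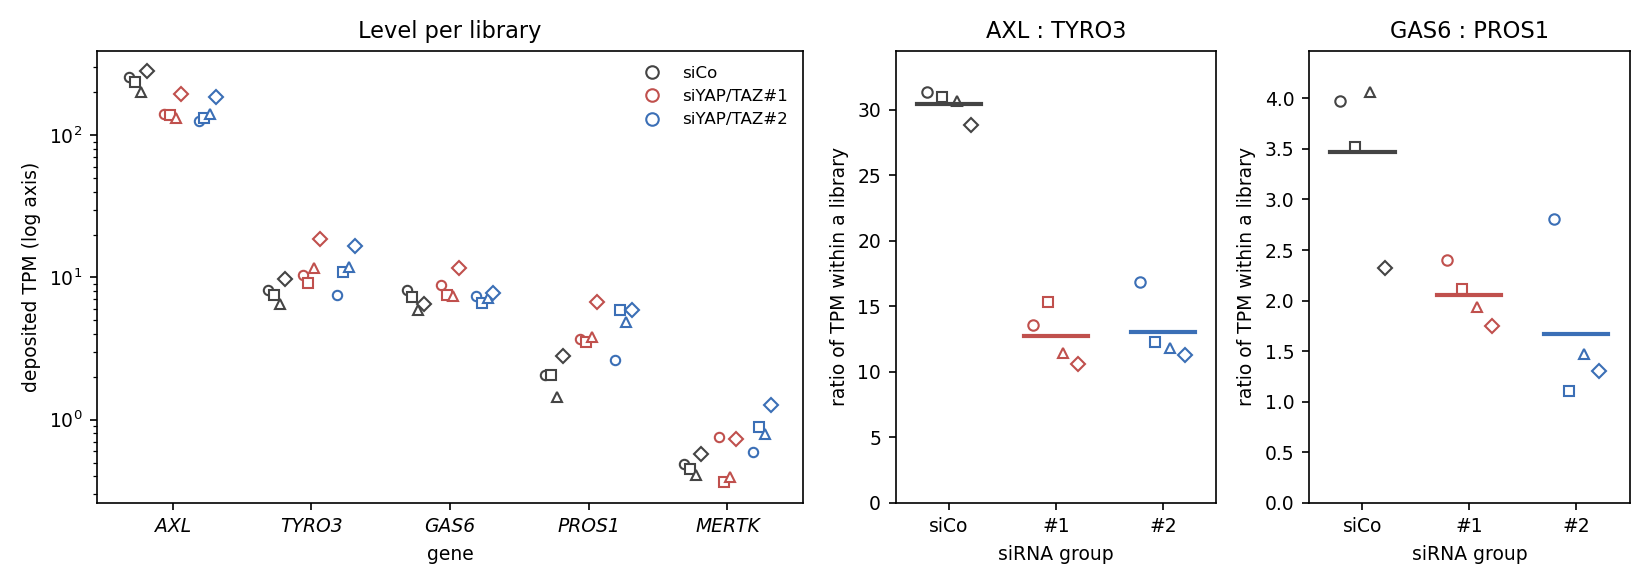
Left, deposited TPM of the 5 genes per library on a log axis, coloured by group; middle and right, ratios of TPM within a library of AXL to TYRO3 and of GAS6 to PROS1 by group (axes from 0, lines are means; shapes mark replicates 1 to 4 as circle, square, triangle and diamond). AXL to TYRO3 is 28.8 or more in siCo and 16.9 or less in treated libraries; for GAS6 to PROS1, siCo replicate 4 and siYAP/TAZ#2 replicate 1 bring the groups into overlap.

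Coding genes beside AXL and MERTK gave the following values. CYP2S1, the nearest coding gene before AXL, 11663 bases away, rose by 0.55 ± 0.06 and 0.52 ± 0.06 (edgeR adjusted p 1.38e-06 and 2.19e-06). HNRNPUL1, 729 bases past AXL, was at -0.21 ± 0.10 with siYAP/TAZ#1 (edgeR adjusted p 0.11) and rose by 0.45 ± 0.10 with siYAP/TAZ#2 (edgeR adjusted p 0.0014). TMEM87B, the coding gene after MERTK, fell by 1.09 ± 0.07 with siYAP/TAZ#1 (edgeR adjusted p 8.84e-09) and was at 0.07 ± 0.07 with siYAP/TAZ#2 (edgeR adjusted p 0.47).

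Coding genes with a mean of at least 5 CPM were ranked by Pearson r with each member over the 12 libraries, on log2 CPM. The 12 libraries fall into 3 groups, so r mostly reflects shared differences between groups. TUFT1, FKBP4, MAP3K14 and LPCAT1 were most like AXL, each at r = 0.996 among 10974 genes. TSKU (0.943), NES (0.937), TSPYL5 (0.937) and CCNJL (0.935) were most like TYRO3. ARNT (0.986), SWAP70 (0.980), HERC6 (0.978) and DTX3L (0.976) were most like PROS1. Likeness to MERTK was weaker, with COQ7 at 0.834, CAAP1 at 0.832, ZFAND2B at 0.831 and STK39 at 0.83. GAS6 was not ranked, since its 3 groups did not differ in the joint test (edgeR F test, adjusted p 0.077).

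Genes around the receptors moved in both directions. Of a list of 58 genes in 9 roles, 55 were tested; TULP1, STAB1 and STAB2 had at most 10 counts in any library. With siYAP/TAZ#1, 19 fell (34.5%) and 12 rose (21.8%), with a median change of -0.11; over all genes tested 18.5% fell and 16.4% rose, with a median of 0.02. With siYAP/TAZ#2, 18 fell (32.7%) and 14 rose (25.5%), with a median of -0.03; over all genes tested 19.2% fell and 19.0% rose, with a median of 0.02. Between the combinations, 6 (10.9%) were lower and 11 (20%) higher with siYAP/TAZ#2, against 6.92% and 8.20% of all genes. Single roles hold 3 to 14 tested genes, so their counts below are descriptions without a test. With library size alone, 12 list genes (21.8%) were lower and 19 (34.5%) higher with siYAP/TAZ#1. Of the 21581 genes tested, 1905 were then lower and 5876 higher. With siYAP/TAZ#2, 9 (16.4%) were lower and 21 (38.2%) higher, against 2037 and 6538 of all genes. Under that scaling the medians went to 0.06 and 0.16 for the list and to 0.20 and 0.21 for all genes. Without replicate 1 of siYAP/TAZ#2 the list counts were 25 lower and 16 higher, and 20 lower and 15 higher. Of 22166 genes then tested, 4950 were lower and 4224 higher with siYAP/TAZ#1, and 4893 and 4614 with siYAP/TAZ#2.

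**Figure D4:**
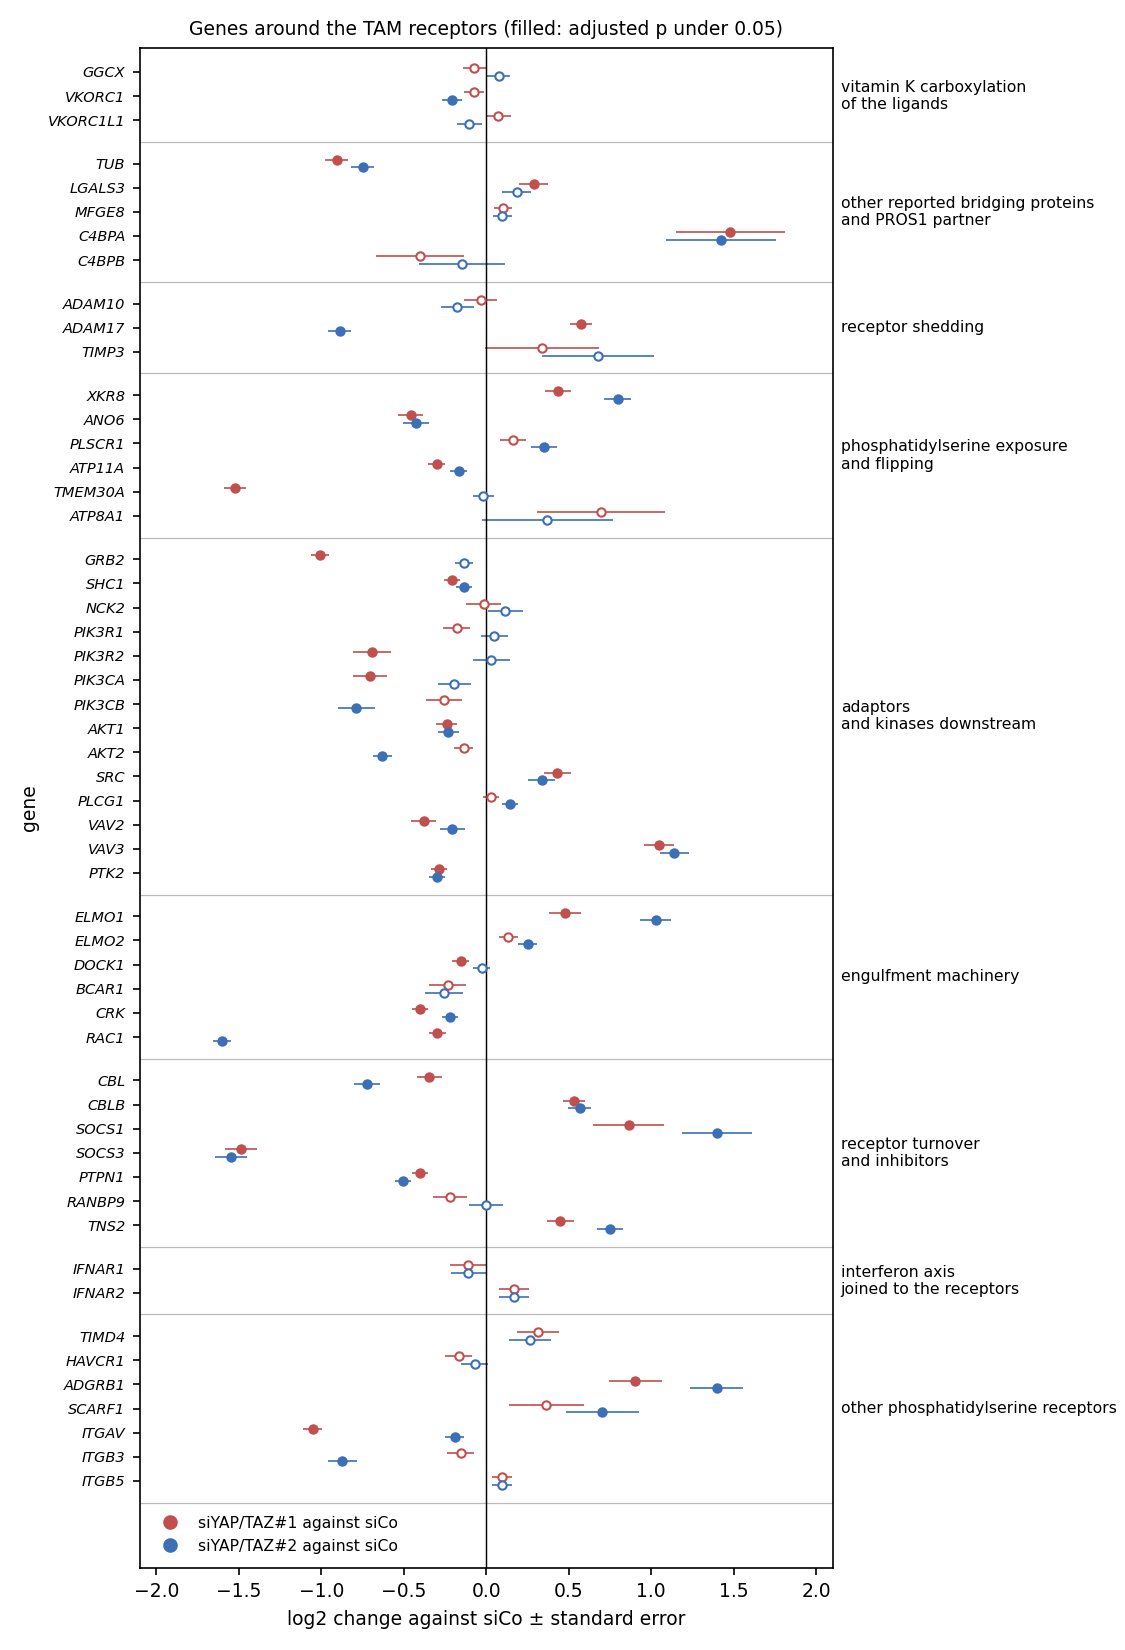
Log2 change against siCo (x axis, points with bars for the standard error) of 53 of the 55 tested genes around the TAM receptors, grouped by role; filled points passed the test. SOCS3 lies near -1.5 with both combinations, while ADAM17, TMEM30A, GRB2, RAC1 and ITGAV show the widest gaps between the combinations among the genes named in the text.

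Of 3 genes for vitamin K dependent carboxylation, which the ligands need, none passed the test with siYAP/TAZ#1 and 1 fell with siYAP/TAZ#2, where 19.2% of all genes fell. This was VKORC1, which recycles vitamin K, at -0.21 ± 0.06 (edgeR adjusted p 0.012), a call lost with library size alone (-0.02). GGCX, the carboxylase itself, was at -0.07 and 0.07. Of 5 tested bridging proteins and partners, 1 fell and 2 rose with siYAP/TAZ#1 (over all genes 18.5% and 16.4%), and 1 fell and 1 rose with siYAP/TAZ#2 (over all genes 19.2% and 19.0%). TUB (tubby), a reported bridging protein for MERTK, fell from 62.7 ± 2.07 CPM to 33.4 ± 0.98 and 37.3 ± 4.29 (changes -0.91 and -0.75, edgeR adjusted p 7.08e-08 and 4.58e-07). C4BPA, the alpha chain of the protein that binds protein S in plasma, rose by 1.48 and 1.42 but stayed below 1 CPM. LGALS3 (galectin-3) rose by 0.29 with siYAP/TAZ#1 (edgeR adjusted p 0.018) and was at 0.19 with siYAP/TAZ#2. For the bridging proteins and partners, library size alone gave 1 lower and 3 higher with each combination. Over all 21581 genes it gave 1905 and 5876 with siYAP/TAZ#1, and 2037 and 6538 with siYAP/TAZ#2.

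ADAM17, a protease that sheds the ectodomains of AXL and MERTK, changed in opposite directions. It stood at 48.8 ± 1.41 CPM in siCo, 72.7 ± 2.07 with siYAP/TAZ#1 and 26.3 ± 2.64 with siYAP/TAZ#2 (SD, n = 4), with no overlap between any of the groups. It rose by 0.58 ± 0.07 (edgeR adjusted p 4.59e-06) and fell by 0.89 ± 0.07 (edgeR adjusted p 4.21e-08), and the difference between the combinations was -1.46 ± 0.07 (edgeR adjusted p 3.58e-10). ADAM10, another sheddase of AXL, did not pass the test, at -0.03 and -0.18.

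Of 7 genes that expose or retrieve phosphatidylserine, 3 fell and 2 rose with siYAP/TAZ#1 (over all genes 18.5% and 16.4%), and 2 fell and 3 rose with siYAP/TAZ#2 (over all genes 19.2% and 19.0%). TMEM30A, the subunit that flippases need to leave the endoplasmic reticulum, fell by 1.52 ± 0.07 with siYAP/TAZ#1, from 78.1 to 27.2 CPM (edgeR adjusted p 1.27e-10), and was at -0.02 ± 0.06 with siYAP/TAZ#2. The difference between the combinations was 1.5 ± 0.07 (edgeR adjusted p 1.98e-10). XKR8, a scramblase opened by caspases, rose by 0.44 and 0.80. Over this role, library size alone gave 2 lower and 3 higher with siYAP/TAZ#1, and 0 lower and 3 higher with siYAP/TAZ#2. Over all 21581 genes it gave 1905 and 5876, and 2037 and 6538.

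Downstream of the receptors, 7 of 14 adaptors and kinases fell and 2 rose with siYAP/TAZ#1 (over all genes 18.5% and 16.4%), and 6 fell and 3 rose with siYAP/TAZ#2 (over all genes 19.2% and 19.0%). The shares that rose, 14.3% and 21.4%, were near those of all genes. Library size alone gave 4 lower and 3 higher with siYAP/TAZ#1, and 2 lower and 4 higher with siYAP/TAZ#2. Over all 21581 genes it gave 1905 and 5876, and 2037 and 6538. GRB2, an adaptor that docks on AXL, fell by 1.01 ± 0.05 with siYAP/TAZ#1, from 149 to 74 CPM (edgeR adjusted p 1.09e-09). With siYAP/TAZ#2 it was at -0.13 ± 0.05 (edgeR adjusted p 0.065), and the combinations differed by 0.88 ± 0.05 (edgeR adjusted p 9.28e-09). AKT2 was at -0.14 with siYAP/TAZ#1 and fell by 0.63 with siYAP/TAZ#2, a difference of -0.49 ± 0.06 (edgeR adjusted p 1.90e-05). VAV3, a guanine nucleotide exchange factor, rose by 1.05 and 1.14, from 7.20 CPM to 14.9 and 15.9.

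Of 6 genes of the engulfment machinery, 3 fell and 1 rose with siYAP/TAZ#1 (over all genes 18.5% and 16.4%), and 2 fell and 2 rose with siYAP/TAZ#2 (over all genes 19.2% and 19.0%). The share that rose with siYAP/TAZ#1 (16.7%) was near that of all genes. Library size alone gave 1 lower and 2 higher with each combination. Over all 21581 genes it gave 1905 and 5876 with siYAP/TAZ#1, and 2037 and 6538 with siYAP/TAZ#2. RAC1, the GTPase that drives the membrane cup, fell from 332 ± 13.7 CPM to 109 ± 4.04 with siYAP/TAZ#2 (-1.60 ± 0.05, edgeR adjusted p 3.99e-12). With siYAP/TAZ#1 it fell by 0.30 to 271 ± 8.24 CPM, a call lost with library size alone (-0.12), and the combinations differed by -1.31 ± 0.05 (edgeR adjusted p 6.97e-11). ELMO1, which activates RAC1 together with DOCK proteins, rose by 0.48 and 1.03 from 4.13 CPM. CRK, an adaptor upstream of them, fell by 0.40 and 0.22, the latter not with library size alone (-0.03).

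Of 7 genes of receptor turnover and inhibition, 3 fell and 3 rose (42.9% each) with each combination, where 18.5% of all genes fell and 16.4% rose with siYAP/TAZ#1 and 19.2% and 19.0% with siYAP/TAZ#2. SOCS3, an inhibitor of cytokine receptor signals that TAM activation is known to induce in immune cells, fell from 120 ± 9.67 CPM to 42.7 ± 4.68 and 41.0 ± 5.60 (-1.49 ± 0.10 and -1.55 ± 0.10, edgeR adjusted p 9.28e-09 and 5.19e-09). SOCS1 rose by 0.86 and 1.40 from 1.16 CPM. PTPN1, a tyrosine phosphatase, fell by 0.40 and 0.51, and CBL, a ubiquitin ligase of receptor tyrosine kinases, by 0.34 and 0.72. The call of CBL with siYAP/TAZ#1 was lost with library size alone (-0.17). The interferon receptor genes IFNAR1 and IFNAR2 did not pass the test with TMM scaling (-0.11 and 0.17 with siYAP/TAZ#1, edgeR adjusted p 0.47 and 0.18). With library size alone IFNAR2 passed it, at 0.34 and 0.36 (edgeR adjusted p 0.026 and 0.018).

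Of 7 tested receptors of other families that bind phosphatidylserine or its bridging proteins, 1 fell and 1 rose with siYAP/TAZ#1 (over all genes 18.5% and 16.4%), and 2 fell and 2 rose with siYAP/TAZ#2 (over all genes 19.2% and 19.0%). With siYAP/TAZ#1 these shares (14.3% each) were near those of all genes. Library size alone gave 1 lower and 3 higher with siYAP/TAZ#1, and 1 lower and 4 higher with siYAP/TAZ#2. Over all 21581 genes it gave 1905 and 5876, and 2037 and 6538. ITGAV (integrin alpha V) fell by 1.05 ± 0.06 with siYAP/TAZ#1, from 182 to 87.8 CPM (edgeR adjusted p 9.50e-10), and by 0.19 ± 0.06 with siYAP/TAZ#2 (edgeR adjusted p 0.012), the latter not with library size alone (0.00). Its partner ITGB3 was at -0.16 with siYAP/TAZ#1 and fell by 0.87 ± 0.09 with siYAP/TAZ#2 (edgeR adjusted p 8.03e-07). The combinations differed by 0.86 for ITGAV and -0.72 for ITGB3 (edgeR adjusted p 1.55e-08 and 1.85e-05). ADGRB1 (BAI1) rose by 0.90 and 1.40 from 2.1 CPM.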

How the data were processed

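RNA-seq of 12 A549 libraries was used as deposited: estimated counts per Ensembl gene, deposited by the authors without scaling, and TPM values computed and deposited by the authors. GRCh38.p13, kallisto 0.4.6 and Trim Galore 0.6.4 are listed, without roles, in the submitters' processing notes; strandedness and the summing of transcripts to genes are not given in the sources used here. RNA had to exceed an integrity number of 7, per the labels' protocols. Groups and replicate numbers came from the sample titles.

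Counts were rounded and tested with edgeR 4.0.16 (R 4.3.3): TMM scaling, filterByExpr, group as the only term over all 12 libraries, quasi-likelihood F test, Benjamini-Hochberg adjustment over 21581 genes, threshold 0.05. CPM are TMM scaled; errors of changes are standard errors. Coordinates and overlaps are from GENCODE v29, and the windows before starts are from RefSeq. On simulated data for siYAP/TAZ#1 against siCo (21042 genes, 200 of them changed, mean count at least 50), 47 of 50 genes changed by -1 (log2) were recovered, 49 of 50 changed by 1, 33 of 50 changed by -0.5 and 31 of 50 changed by 0.5, with 5 false calls.

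The members and lists were chosen with earlier results of these data known. Named genes were the 5 members, the 4 coding genes most like each member whose groups differed, and 1 to 3 genes per role of the pathway list by adjusted p; others, such as neighbours, GGCX, ADAM10, SOCS1 and the interferon receptors, were chosen after their values were seen. Alternatives were other scalings, filters, DESeq2 1.42.0, limma 3.58.1 on log2(TPM + 1) and log2(TPM + 0.1), the replicate number as a block, and leaving out each library. All 12 libraries were kept. Libraries of a group differed by more than sampling noise (chi-square per degree of freedom of 3.66 or more). The highest values, 48.4 to 76.7, were those of siYAP/TAZ#2 replicate 1 against its own group. Some neighbouring and pathway genes are not reported here.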

Additional observations from a re-analysis of the deposited data

Results flagged for a closer look

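The effect of the combinations on TYRO3 differed: the change with siYAP/TAZ#2 minus that with siYAP/TAZ#1 was -0.25 (log2, edgeR adjusted p 0.017), with all 4 siYAP/TAZ#2 libraries below all 4 siYAP/TAZ#1 libraries. For MERTK the same difference was 0.51 (edgeR adjusted p 0.026), with overlapping libraries and 63 to 122 counts per library. Both tests compare the treated groups directly, where siCo cancels. No library lay far enough from the other 3 of its group to be listed for any of the 5 genes.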

How the results depend on the processing

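Of 601 recomputed values, 526 were labelled the same as the main value. For the change of a member, this label means the same direction and side of the threshold. For a count, it means a value within a fixed fold range of the main one. AXL and PROS1 kept their calls against siCo under all settings but 1: with limma on log2(TPM + 1), PROS1 with siYAP/TAZ#1 was 0.79 (adjusted p 0.060). Low MERTK counts and the scaling limit what can be said of MERTK and GAS6; the causes of the changes below were not tested. The setting on coding TPM (TPM rescaled to coding genes) and the one without the libraries numbered 4 were chosen after seeing the data.

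Library size alone gave MERTK 0.042 and GAS6 0.042 with siYAP/TAZ#1, and TYRO3 0.24, MERTK 0.56 and GAS6 -0.22 with siYAP/TAZ#2. Its list counts were 12 lower and 19 higher with siYAP/TAZ#1 and 9 lower with siYAP/TAZ#2. Over all 21581 genes tested, these counts were 1905, 5876 and 2037. Upper quartile factors gave MERTK 0.48 (edgeR adjusted p 0.017) and GAS6 -0.29 (0.12) with siYAP/TAZ#2. They also gave 19 list genes higher with siYAP/TAZ#1 and 11 lower with siYAP/TAZ#2, against 4928 and 2913 of all genes. With only the 2 groups compared GAS6 was -0.39 (0.067), and with no filter MERTK differed between the combinations by 0.50 (0.060).

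On log2(TPM + 1) and log2(TPM + 0.1), limma called 1892 and 2309 genes with siYAP/TAZ#1, 3717 and 4067 with siYAP/TAZ#2, and 117 and 118 between the combinations, against 7530, 8244 and 3262. TYRO3 with siYAP/TAZ#1 was 0.54 and 0.59, not called. MERTK turned to 0.070 and 0.14 and GAS6 to 0.30 and 0.33 with siYAP/TAZ#1, and GAS6 to 0.05 and 0.06 with siYAP/TAZ#2. Between the combinations TYRO3 was -0.077 and -0.084 and MERTK 0.27 and 0.59, not called. List counts on both were 2 lower and 7 higher with siYAP/TAZ#1, 2 lower with siYAP/TAZ#2, and 0 lower and 1 higher between the combinations. Over all 21581 genes tested, limma called 156 and 172 lower and 1736 and 2137 higher with siYAP/TAZ#1 on the 2 scales. With siYAP/TAZ#2 it called 198 and 207 lower, and between the combinations 39 and 49 lower and 78 and 69 higher. On log2(coding TPM + 1), GAS6 was 0.10 and -0.22 against siCo, and TYRO3 -0.14 and MERTK 0.37 between the combinations. On that scale 1698 genes differed between the combinations. List counts were 10 lower with siYAP/TAZ#2, against 1851 of all genes, and 6 higher between the combinations, against 917. Without the libraries numbered 4, GAS6 with siYAP/TAZ#2 was -0.38 (adjusted p 0.057), TYRO3 -0.27 (0.050) and MERTK 0.47 (0.15) between the combinations, and 2080 genes differed there. The order of levels by TPM was met in 11 libraries, and by counts per kilobase in 5.

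Leaving out 1 library at a time, MERTK ran from 0.33 to 0.45 and GAS6 from -0.57 to -0.31 with siYAP/TAZ#2. Between the combinations AXL ran from -0.15 to -0.032, TYRO3 from -0.27 to -0.20, MERTK from 0.45 to 0.64, GAS6 from -0.43 to -0.18, and the genes called from 2541 to 5127, the highest without siYAP/TAZ#2 replicate 1.

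Same-numbered libraries deviated from their group means with correlations of -0.15 to 0.21, not all above 0.1, so the numbers were not taken as pairs. The libraries numbered 4 did share a deviation. Their correlations were 0.19 (siYAP/TAZ#1 and siCo), 0.15 (siYAP/TAZ#2 and siCo) and 0.21 (between the combinations). The highest with another number were -0.06, -0.03 and -0.03. With the number as a replicate block, MERTK with siYAP/TAZ#2 was 0.38 and passed the test (edgeR adjusted p 0.049), no other member's call changed, and 7621, 8266 and 3266 genes were called.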
